A study of Mus musculus with 24 samples.

Results

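Leukocyte integrins are the adhesion receptors by which blood leucocytes stop on endothelium and move within tissue. In all, 8 such genes were followed in the hearts of mice with experimental autoimmune myocarditis (EAM): the integrin subunit genes Itgal, Itgam, Itgax, Itgb2, Itga4, Itgb7 and Itgae, and Fermt3, which encodes an integrin activator. They were listed by name, with earlier results of these data known, and all 8 were matched by symbol among the 41388 genes counted.

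Hearts of young adult male wild type Balb/c mice were taken at day 10 (D10), day 15 (D15) or day 21 (D21), with 4 EAM and 4 control hearts at each day and 24 hearts in all. EAM mice were given 100 μg of a cardiac myosin heavy chain peptide in 200 μl of an emulsion with SCFA, a complete Freund's adjuvant, on day 0 and again on day 7. Control mice were given the same adjuvant with PBS in place of the peptide, and both groups received pertussis toxin (PTX) on day 0, so that adjuvant and toxin were shared by all hearts. The hearts sequenced were chosen by the study to show inflammation as far as possible, so the EAM groups are not a random draw of immunized mice. Each heart gave 1 RNA-seq library of 15814863 to 24980864 reads counted in genes, with a median of 19469782. The 4 D21 EAM libraries carry another library code than the other 20, so that library set and EAM cannot be told apart at D21.

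An integrin is a pair of an alpha and a beta chain. Itgb2 encodes the beta 2 chain (CD18), found on leucocytes, which pairs with the alpha L chain of Itgal (LFA-1), the alpha M chain of Itgam (Mac-1, CD11b) or the alpha X chain of Itgax (CD11c). Itga4 encodes the alpha 4 chain, which pairs with beta 1 to bind VCAM-1 and fibronectin or with the beta 7 chain of Itgb7 to bind the gut addressin MAdCAM-1, and Itgae encodes the alpha E chain (CD103), which pairs with beta 7 alone and binds E-cadherin. Kindlin-3, the product of Fermt3, binds the tails of beta chains inside blood cells, platelets included, and is needed to switch integrins to the state that holds ligand. The myeloid chain alpha M is abundant on monocytes, macrophages and neutrophils, alpha X on dendritic cells and some macrophages, and alpha L on lymphocytes and most other leucocytes.

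On the GRCm38 mouse genome, 3 of the alpha chain genes lie on chromosome 7: Itgal (ENSMUSG00000030830) at chr7:127296260-127335138, Itgam (ENSMUSG00000030786) at chr7:128062640-128118491 and Itgax (ENSMUSG00000030789) at chr7:128129547-128150657, all on the plus strand. Itgb2 (ENSMUSG00000000290) lies at chr10:77530252-77565708, Itga4 (ENSMUSG00000027009) at chr2:79255426-79333123 and Itgae (ENSMUSG00000005947) at chr11:73090583-73147446, on the plus strand too. Itgb7 (ENSMUSG00000001281) at chr15:102215995-102231944 and Fermt3 (ENSMUSG00000024965) at chr19:6998958-7019469 are on the minus strand. Exons of Itga4 overlap those of Cerkl, and exons of Fermt3 those of Trpt1, each on the opposite strand, and the strand setting of the read counting was not stated in the sources at hand.

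RefSeq promoter windows (GRCm38.p6, 250 bases before the start and 50 after it) were held for 5 of the 8 genes. The windows of Itgam, Itgax and Itgb7 are shown because these 3 genes had the largest D15 changes among the 5. Capitals mark matches to GAGGAA, the core of sites for the myeloid factor PU.1, to ACCACA, the core of RUNX sites, and to the GC box GGGCGG. Both strands were searched, and a match on the other strand appears in capitals as its reverse complement.
Itgam, chr7:128062390-128062689, plus strand: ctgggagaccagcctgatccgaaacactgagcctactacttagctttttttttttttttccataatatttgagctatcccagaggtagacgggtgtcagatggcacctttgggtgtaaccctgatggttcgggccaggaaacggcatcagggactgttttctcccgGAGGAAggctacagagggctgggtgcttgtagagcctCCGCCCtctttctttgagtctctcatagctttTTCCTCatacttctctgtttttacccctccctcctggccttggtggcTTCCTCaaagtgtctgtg
Itgax, chr7:128129300-128129599, plus strand: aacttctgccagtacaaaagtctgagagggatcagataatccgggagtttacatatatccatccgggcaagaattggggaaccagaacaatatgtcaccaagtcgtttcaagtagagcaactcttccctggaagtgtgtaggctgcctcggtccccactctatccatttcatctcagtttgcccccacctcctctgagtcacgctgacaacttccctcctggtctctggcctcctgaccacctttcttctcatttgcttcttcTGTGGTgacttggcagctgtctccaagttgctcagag
Itgb7, chr15:102231886-102232185, minus strand: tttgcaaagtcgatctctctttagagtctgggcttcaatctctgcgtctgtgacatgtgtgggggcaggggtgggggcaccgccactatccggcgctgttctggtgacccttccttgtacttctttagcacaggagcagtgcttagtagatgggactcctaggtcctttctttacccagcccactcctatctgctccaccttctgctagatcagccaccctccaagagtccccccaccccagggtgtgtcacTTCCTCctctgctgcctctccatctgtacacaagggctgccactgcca
The Itgam window holds 3 matches to GAGGAA and a GC box on the opposite strand, the Itgax window a single RUNX core 14 bases past the start, and the Itgb7 window a single GAGGAA match. Of the 5 windows, 2 held GAGGAA, as did 28.3% of all 32851 promoter windows. ACCACA was found in 3 of the 5 and in 16.8% of all windows, and GGGCGG in 2 of the 5 and in 35.7% of all windows. These are letter matches and describe the windows only.

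At D15 all 8 leukocyte integrin genes were far higher in EAM than in control hearts, and no EAM heart overlapped a control heart for any of them. Levels are given in CPM, the usual library-scaled read count, with library sizes adjusted by TMM. Itgb2, the shared beta 2 chain, was at 9.43, 12.4, 11.1 and 11.5 CPM in control hearts 1 to 4 and at 415, 522, 308 and 464 CPM in EAM hearts 1 to 4. Itgal was at 3.85, 5.25, 5.18 and 3.71 CPM in the control and at 107, 83.4, 102 and 119 CPM in the EAM hearts. The beta 2 chain and the alpha L chain thus separated the groups completely. Itgam was at 9.95, 14.7, 16.1 and 16.8 CPM in the control and at 372, 576, 342 and 434 CPM in the EAM hearts. Itgax was at 1.04, 0.945, 2.59 and 1.59 CPM in the control and at 106, 134, 63.4 and 152 CPM in the EAM hearts. EAM heart 2 was the highest for Itgb2 and Itgam and the lowest for Itgal.

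The alpha 4, beta 7 and alpha E chains were also separated at D15. Itga4 was at 7.45, 6.26, 7.35 and 7.48 CPM in the control hearts and at 89.7, 67.0, 106 and 83.5 CPM in the EAM hearts. Itgb7 was at 1.20, 1.42, 2.07 and 2.06 CPM in the control and at 64.3, 53.6, 50.1 and 60.5 CPM in the EAM hearts. EAM heart 2, the lowest for Itga4, was above heart 3 for Itgb7. Itgae was the scarcest member, at 0.365, 0.649, 0.414 and 0.294 CPM in the control hearts, which is 5 to 11 reads, and at 8.78, 3.08, 7.00 and 7.44 CPM in the EAM hearts. Fermt3, the activator, was at 8.96, 7.91, 9.89 and 10.7 CPM in the control and at 110, 116, 88.5 and 108 CPM in the EAM hearts. EAM heart 2 was thus the lowest for Itgal, Itga4 and Itgae and the highest for Itgam, Itgb2 and Fermt3.

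**Figure D1:**
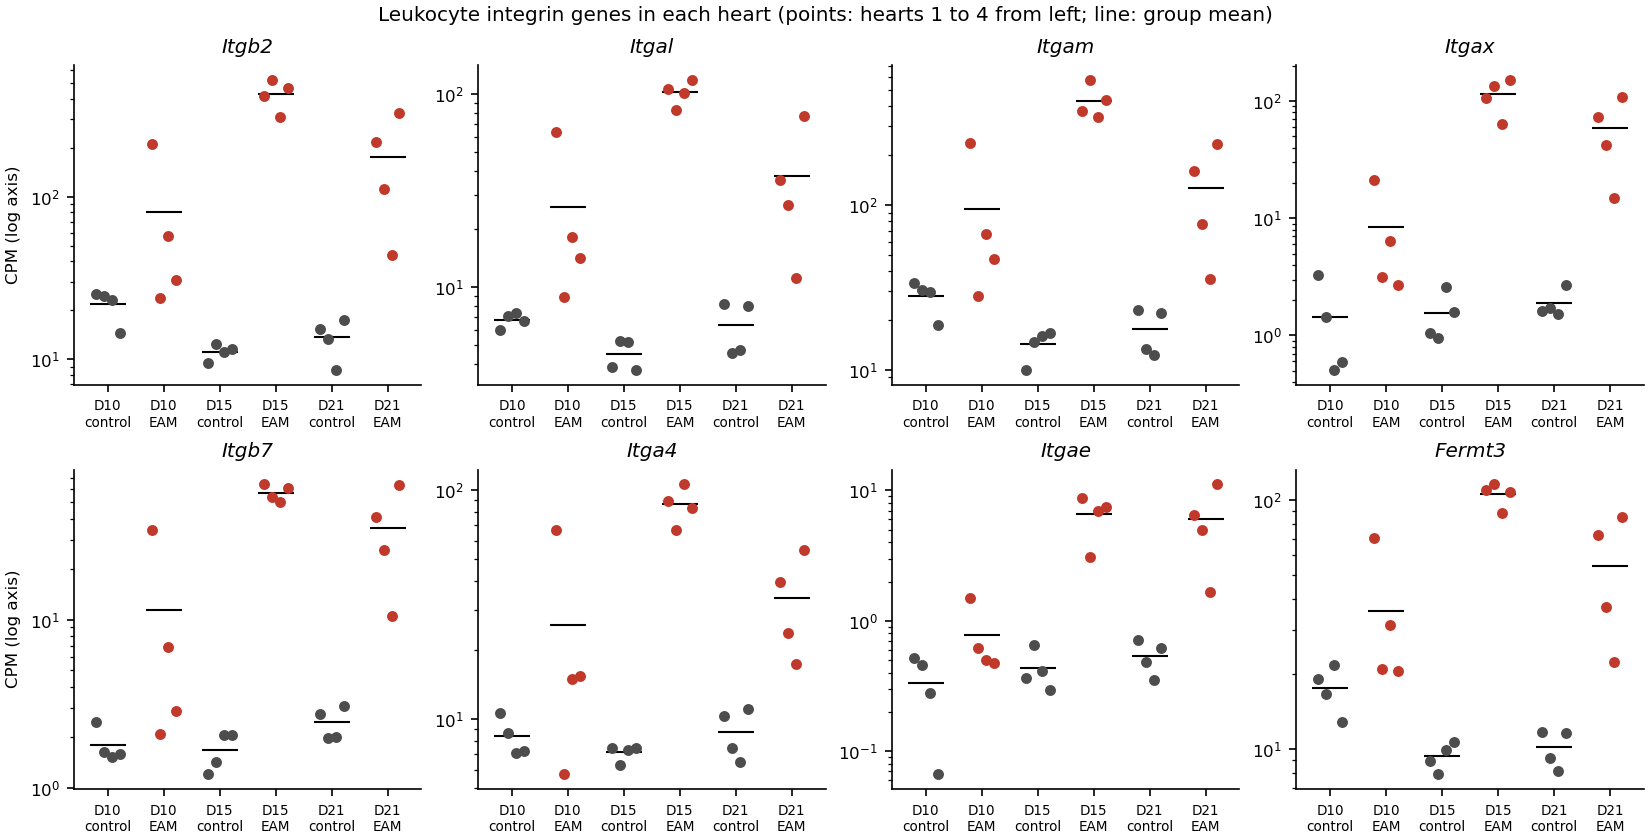
CPM of the 8 genes in each of the 24 hearts, 1 panel a gene, on a log axis. Each point is a heart (grey control, red EAM, hearts 1 to 4 from the left) and the line is the mean of 4 hearts. At D15 every EAM heart lies above every control heart in all 8 panels, while at D10 EAM heart 1 stands apart and at D21 EAM heart 3 lies lowest of its group in all 8.

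The D15 differences were tested with edgeR's quasi-likelihood test over the 15693 genes with enough reads, and a gene was called at a false discovery rate (FDR, the adjusted p) under 0.01 and at least a 2-fold change. All 8 members were called induced, against 18.1% of all genes tested, and 0 were called repressed, against 12.9%. The median log2 fold change of the 8 was 4.74, against 0.02 over all genes tested. Groups did not overlap for all 8, against 34.5% of all genes with every EAM heart above every control heart. Itgax had the largest change, a log2 fold change of 6.23 (SE 0.38, adjusted p = 8.65e-07, edgeR) or 75.1-fold. The beta chains followed, Itgb2 at 5.30 (SE 0.19, adjusted p = 3.23e-08, edgeR) and Itgb7 at 5.12 (SE 0.17, adjusted p = 2.24e-08, edgeR). Itgam was at 4.94 (SE 0.23, adjusted p = 1.64e-07, edgeR) and Itgal at 4.55 (SE 0.16, adjusted p = 2.83e-08, edgeR). The smallest changes were those of Itgae at 3.96 (SE 0.40), Itga4 at 3.63 (SE 0.14) and the activator Fermt3 at 3.53 (SE 0.12), with adjusted p from edgeR between 2.65e-08 and 1.89e-05. All 8 were called in each of the 8 fits that left out 1 heart, with adjusted p of at most 0.000148.

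In bulk tissue, more cells of a type and more RNA per cell cannot be told apart. Markers of several leucocyte types moved with the integrins at D15. The summed level of 9 monocyte and macrophage genes was 560 to 641 CPM in control and 3280 to 4630 CPM in EAM hearts, and 9 of 9 were called induced. The 7 neutrophil genes summed to 16.8 to 82.1 CPM in control and 553 to 950 CPM in EAM hearts (7 of 7 called), the 8 T cell genes to 2.36 to 3.42 CPM and 56.8 to 80.2 CPM (8 of 8 called), and the 4 NK cell genes to 0.311 to 1.09 CPM and 7.84 to 15.2 CPM (4 of 4 called). EAM heart 2, the highest for Itgam and Itgb2, had the highest neutrophil sum of its group at 950 CPM, against 553 to 638 CPM in the other hearts. The NK cell sum was lowest in heart 2 at 7.84 CPM. The T cell sum was lowest in heart 3 at 56.8 CPM, against 67.3 CPM in heart 2. The monocyte and macrophage sum was highest in heart 1 at 4630 CPM, against 4510 CPM in heart 2. The 6 cardiomyocyte genes, which mark the tissue itself, summed to 21800 to 26000 CPM in control and 6010 to 15800 CPM in EAM hearts, with 3 of 6 called repressed. The 5 dendritic cell genes summed to 30.8 to 37.4 CPM and 27 to 45.4 CPM, with Flt3 and Xcr1 called induced and Zbtb46, Clec9a and Cd209a not called. Zbtb46, the largest part of the control sum, was at 26.4 CPM in control and 15.2 CPM in EAM hearts on average (log2 fold change -0.76, under 2-fold). The part of each cell type in the integrin levels was not tested.

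At D21 every EAM heart was again above every control heart for all 8 genes, but the 4 EAM hearts were spread widely. Itgb2 was at 15.3, 13.3, 8.57 and 17.5 CPM in control hearts 1 to 4 and at 215, 112, 43.5 and 325 CPM in EAM hearts 1 to 4. Itgam was at 23.0, 13.3, 12.3 and 22.1 CPM in the control and at 162, 77.2, 35.6 and 234 CPM in the EAM hearts. Itgax was at 1.63, 1.73, 1.53 and 2.71 CPM in the control and at 73.0, 42.1, 14.9 and 108 CPM in the EAM hearts. The order of the EAM hearts was the same for the beta 2 chain and both myeloid alpha chains, with heart 4 highest and heart 3 lowest. Itgal, at 8.13, 4.56, 4.72 and 7.99 CPM in the control and 36.0, 26.6, 11.2 and 77.1 CPM in the EAM hearts, had its lowest EAM heart nearest to the controls.

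The same order of EAM hearts held in the alpha 4 and beta 7 chains. Itga4 was at 10.3, 7.44, 6.47 and 11 CPM in the control hearts and at 39.4, 23.8, 17.3 and 54.7 CPM in the EAM hearts. Itgb7 was at 2.74, 1.97, 2.01 and 3.07 CPM in the control and at 41.0, 26.1, 10.6 and 63.1 CPM in the EAM hearts. Itgae was at 0.712, 0.480, 0.350 and 0.614 CPM in the control and at 6.5, 4.96, 1.67 and 11.2 CPM in the EAM hearts. The scarce alpha E chain thus reached 11.2 CPM in EAM heart 4, above the 8.78 CPM of its highest D15 heart. Fermt3 was at 11.7, 9.22, 8.18 and 11.6 CPM in the control and at 72.2, 37.3, 22.3 and 85.5 CPM in the EAM hearts. Across the 8 members, the median fold over the mean of the controls was 10.6 in EAM heart 1, 6.27 in heart 2, 2.65 in heart 3 and 17.0 in heart 4. At D15 the same medians were 24.8, 25.2, 23.2 and 28.4.

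At D21, 7 of the 8 members were called induced in the edgeR test, against 4.13% of the 15266 genes tested, and 0 were called repressed, against 1.16%. Groups did not overlap for all 8, against 17.8% of all genes. The median log2 fold change of the 8 was 3.20, against -0.01 over all genes tested. Itgax again changed most, with a log2 fold change of 5.01 (SE 0.62, adjusted p = 0.00469, edgeR), followed by Itgb7 at 3.88 (SE 0.53, adjusted p = 0.00477, edgeR) and Itgb2 at 3.71 (SE 0.60, adjusted p = 0.00642, edgeR). Itgae was at 3.53 (SE 0.57, adjusted p = 0.00644, edgeR), Itgam at 2.88 (SE 0.56, adjusted p = 0.00964, edgeR), Fermt3 at 2.45 (SE 0.41, adjusted p = 0.0068, edgeR) and Itga4 at 1.97 (SE 0.37, adjusted p = 0.0088, edgeR). Itgal, at 2.61 (SE 0.55, adjusted p = 0.0119, edgeR), was not called. The D21 calls lay close to the limit: 0 members were called without any single control heart or without EAM heart 1 or 2, 5 without EAM heart 4 and 8 without EAM heart 3. The calls over all genes moved in the same way, from 630 induced to 0 without any single control heart, 4 without EAM heart 1, 8 without EAM heart 2, 298 without EAM heart 4 and 1477 without EAM heart 3. The adjusted p of the 8 members was at most 0.0439 in those 8 fits. By limma-voom 0 members were called, and by DESeq2 and by edgeR's likelihood ratio test all 8.

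Macrophage and T cell markers moved with the spread of the D21 EAM hearts, while neutrophil and B cell markers departed from it in part. The monocyte and macrophage genes summed to 4390, 2320, 1330 and 3970 CPM in EAM hearts 1 to 4 and to 501 to 788 CPM in the controls. The T cell genes summed to 75.8, 43.7, 19.8 and 78.9 CPM in EAM hearts 1 to 4 and to 3.28 to 4.61 CPM in the controls. The neutrophil genes summed to 11.9 to 96.5 CPM in the controls, with 1 of 7 called. In EAM hearts 1 to 4 they summed to 363, 107, 175 and 409 CPM, lowest in heart 2. The B cell genes summed to 8.77, 2.67, 2.54 and 2.15 CPM in these EAM hearts, lowest in heart 4. Their control range was 1.06 to 1.93 CPM. EAM heart 3, the lowest for all 8 integrin genes, was the lowest for the macrophage and T cell genes too, and its cardiomyocyte genes summed to 27000 CPM, above the 23000 to 24800 CPM of the controls. Of the 5 dendritic cell genes, 2 were called induced at D21, Flt3 at a log2 fold change of 3.71 and Cd209a at 1.91. The dendritic cell genes summed to 40.6, 40.1, 37.1 and 57.3 CPM in EAM hearts 1 to 4 and to 32.4 to 38.6 CPM in the controls. The part of these cell types was not tested.

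At D10 no member passed the test, and EAM heart 1 stood apart from the other 3. Itgb2 was at 25.2, 24.4, 23.1 and 14.5 CPM in control hearts 1 to 4 and at 209, 23.7, 57.5 and 30.9 CPM in EAM hearts 1 to 4. Itgam was at 33.7, 30.5, 29.7 and 18.6 CPM in the control and at 239, 27.9, 67.1 and 46.8 CPM in the EAM hearts. Itgax was at 3.25, 1.43, 0.505 and 0.595 CPM in the control and at 21.2, 3.17, 6.35 and 2.69 CPM in the EAM hearts. EAM heart 1 stood far above the others in the beta 2 chain and both myeloid chains, and EAM heart 2 lay within the controls for Itgb2, Itgam and Itgax. Itgal, at 5.99, 7.12, 7.36 and 6.67 CPM in the control and 63.5, 8.84, 18.2 and 14.2 CPM in the EAM hearts, was the only member whose groups did not overlap at D10.

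Of the other members at D10, Itga4 was at 10.6, 8.66, 7.13 and 7.27 CPM in the control and at 66.7, 5.72, 14.9 and 15.4 CPM in the EAM hearts. Itgb7 was at 2.45, 1.64, 1.52 and 1.59 CPM in the control and at 34.1, 2.10, 6.85 and 2.85 CPM in the EAM hearts. Fermt3 was at 19.2, 16.6, 21.7 and 12.8 CPM in the control and at 70.5, 21.0, 31.5 and 20.5 CPM in the EAM hearts. EAM heart 1 was highest and EAM heart 2 within or below the control range in all 3 genes. Itgae, at 0.0661 to 0.514 CPM in the control and 0.475 to 1.5 CPM in the EAM hearts, had 1 to 34 reads a heart and was not tested at D10. EAM heart 1 was above all controls for 8 of 8 members, heart 3 for 7, heart 4 for 5 and heart 2 for 2. The share of all genes above all controls in each heart is not given here, so these counts describe the hearts only.

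Among the 15029 genes tested at D10, 0.0% were called induced, and 0 of the 7 members tested were called (edgeR, adjusted p = 0.328 for each of the 7). DESeq2, limma-voom and edgeR's likelihood ratio test also called 0 members. At an unadjusted p under 0.05, 7 of 7 were higher in EAM hearts, against 9.71% of all genes, and 7 of 7 were at least 2-fold higher, against 4.69%. Groups did not overlap for 1 of the 7, against 4.41% of all genes. The fitted log2 fold changes ran from 1.02 (SE 0.40) in Fermt3 to 2.67 (SE 0.86) in Itgb7, with a median of 1.87. Without EAM heart 1 the median was 0.76 and the range 0.46 in Fermt3 to 1.47 in Itgax, with 6 of 7 at an unadjusted p under 0.05 and 3 of 7 at least 2-fold higher. In that fit 908 of all 14859 genes tested were higher at an unadjusted p under 0.05 and 196 were at least 2-fold higher. The leucocyte genes Ptprc, Laptm5, Cd53, Cd52 and Coro1a summed to 925 CPM in EAM heart 1, to 170, 354 and 216 CPM in EAM hearts 2 to 4 and to 124 to 228 CPM in the controls.

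**Figure D2:**
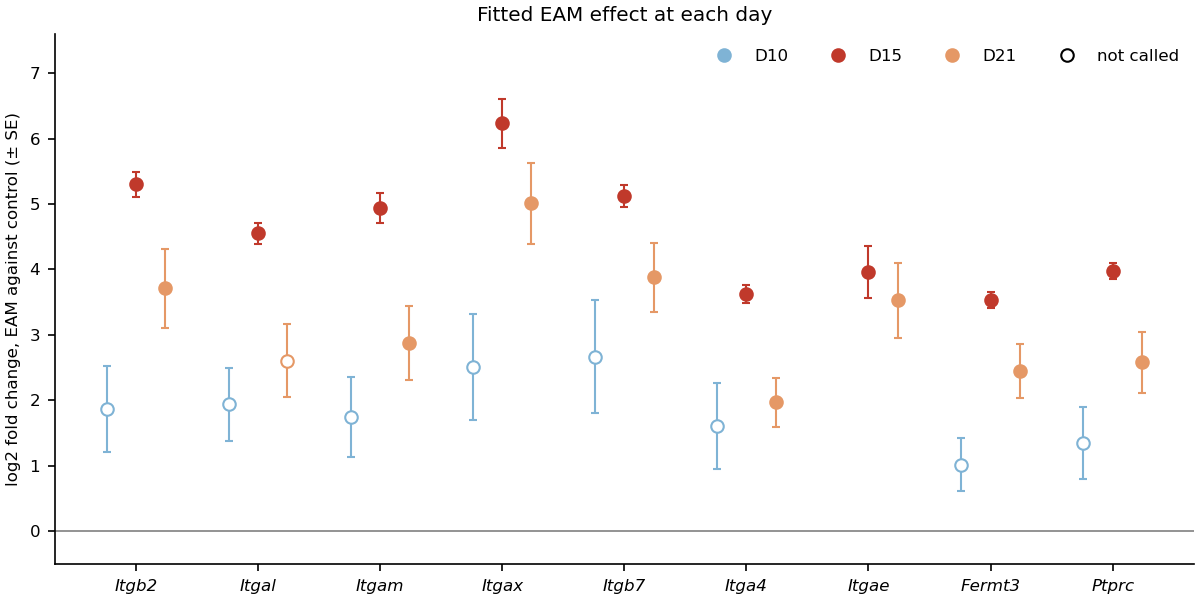
Fitted log2 fold change of EAM against control hearts (± SE, edgeR) at D10, D15 and D21 for the 8 genes and for Ptprc, which encodes the leucocyte antigen CD45. Filled points were called at FDR under 0.01 and at least 2-fold, and open points were not. Each gene is highest at D15, from 3.53 in Fermt3 to 6.23 in Itgax, and Itgae has no D10 value because it was not tested there.

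Whether the EAM effect differed between days was tested in a fit of all 24 libraries. From D10 to D15 a larger effect was called in 5 of the 8 members, against 5.38% of the 16318 genes tested. The fitted difference was positive in all 8. Limma-voom called fewer members than edgeR, as given in the last section. The rise in log2 fold change was 3.67 (SE 1.0) in Itgax, 3.38 (SE 0.79) in Itgb2, 3.15 (SE 0.76) in Itgam, 2.56 (SE 0.72) in Itgal and 2.46 (SE 0.52) in Fermt3, with adjusted p from edgeR between 0.00212 and 0.00799. The differences of Itgae at 2.71, Itgb7 at 2.40 and Itga4 at 1.98 did not pass (edgeR adjusted p = 0.014, 0.0435 and 0.0235). Itgam, Itgb2 and Fermt3 were called in each of the 16 fits without 1 heart, Itgax in 5 and Itgal in 2 of them. Without D10 EAM heart 1, the heart that stood apart, all 8 were called, and the larger effects over all genes went from 878 to 1999 of 16275. In the other 15 fits that count lay between 486, without D10 EAM heart 4, and 1024, without D15 EAM heart 3.

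From D15 to D21, 0 of 8 members were called smaller by edgeR, against 0.919% of all genes, and 4 of 8 were smaller at an unadjusted p under 0.05, against 17.3%. The other 3 tools called 0 of the 8 as well. The fitted differences were all negative, from -0.42 (SE 0.74) in Itgae to -2.06 (SE 0.75) in Itgam, with a median of -1.41. Itgam had an adjusted p of 0.0461 and Itgal, at -1.94 (SE 0.71), of 0.0472 (edgeR). Without D21 EAM heart 4, the highest of its group, Itgal was called, with a difference of -2.55, and the smaller effects over all genes went from 150 to 446.

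In control hearts the members stayed low at all days. From D10 to D15, 0 of 8 were called by edgeR, against 0.0919% of all genes in either direction, and from D10 to D21 again 0 of 8, against 0.214%. DESeq2, limma-voom and edgeR's likelihood ratio test called 0 in both comparisons too. Fermt3 had an unadjusted p under 0.05 in both comparisons and was the only member to do so, with fitted differences of -0.91 (SE 0.37, edgeR adjusted p = 0.596) and -0.79 (SE 0.37, edgeR adjusted p = 0.388). Fermt3 is also made by megakaryocytes and platelets, and the 4 platelet genes summed to 42.9 to 105 CPM in D10 controls, 10.5 to 13.8 CPM in D15 controls and 8.79 to 18.1 CPM in D21 controls. Their part in the Fermt3 level was not tested. Neutrophil genes summed to 130 to 246 CPM in D10 controls and 16.8 to 82.1 CPM in D15 controls, and Itgam and Itgb2, both highest in D10 controls, had fitted differences of -0.97 (SE 0.54) and -0.97 (SE 0.56) from D10 to D15 that did not pass (edgeR adjusted p = 0.855 and 0.874).

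Levels of different genes were compared per kilobase of exon. In all 6 groups Itgb2 came first, Itgam second and Itgae last. In D15 control hearts Itgb2 was at 3.64 ± 0.409 CPM per kb, Itgam at 2.86 ± 0.613 and Fermt3 at 1.62 ± 0.205 (SD, n = 4 each), and the ranges of Itgb2 and Itgam overlapped. In D15 EAM hearts Itgb2 was at 140 ± 29.8 CPM per kb, Itgam at 85.8 ± 20.7, Itgax at 23.7 ± 8.06 and Itgb7 at 20.6 ± 2.33 (SD, n = 4 each). Itgax moved from the place before last in D15 controls to the third in D15 EAM hearts, though its range overlapped those of Itgb7, Fermt3 and Itgal. Below them, Fermt3 was at 18.3 ± 2.04, Itgal at 15.7 ± 2.28, Itga4 at 6.19 ± 1.15 and Itgae at 1.44 ± 0.535 CPM per kb (SD, n = 4 each). Counted per length of the longest coding transcript in place of all exons, Itgb2 stayed first and Itgae last in all 6 groups, but Fermt3 came before Itgam in the 3 control groups and before Itgax and Itgb7 in D15 EAM hearts.

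Among the alpha chains that pair with beta 2, Itgax made up a larger share in EAM hearts at D15 and D21. The 4 are Itgal, Itgam, Itgax and Itgad, the last a chain found on some tissue macrophages, and their CPM per kb were added up within each heart. Itgax made up 7.51% ± 2.71 of the sum in D15 control and 18.6% ± 3.98 in D15 EAM hearts, and 7.92% ± 1.76 and 28.2% ± 2.26 at D21 (SD, n = 4 each). The lowest EAM heart was at 13.6% at D15 and 25.3% at D21, above the highest controls at 11.2% and 8.98%. Itgam held 68.1% ± 3.59 and 68.3% ± 4.61 at D15 and 68.2% ± 2.61 and 57.6% ± 2.72 at D21, so that its share was lower in every D21 EAM heart than in any D21 control heart. Itgal was at 16.6% ± 3.13 and 13.0% ± 3.39 at D15, with overlapping ranges, and at 18.8% ± 0.968 and 13.3% ± 1.97 at D21, without overlap (SD, n = 4 each). Itgad made up 7.81% ± 1.32 in D15 control and 0.109% ± 0.0586 in D15 EAM hearts, and its own level was called repressed, from 1.44 ± 0.140 to 0.586 ± 0.228 CPM (log2 fold change -1.25, SE 0.27, adjusted p = 0.00235, edgeR). Itgb2 over the sum of its 4 alpha chains was 0.884 ± 0.115 in D15 control and 1.12 ± 0.0705 in D15 EAM hearts, and 0.882 ± 0.153 and 1.27 ± 0.0754 at D21 (SD, n = 4 each). The ranges of this ratio did not overlap at either day. These shares and sums are descriptions, with no test.

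**Figure D3:**
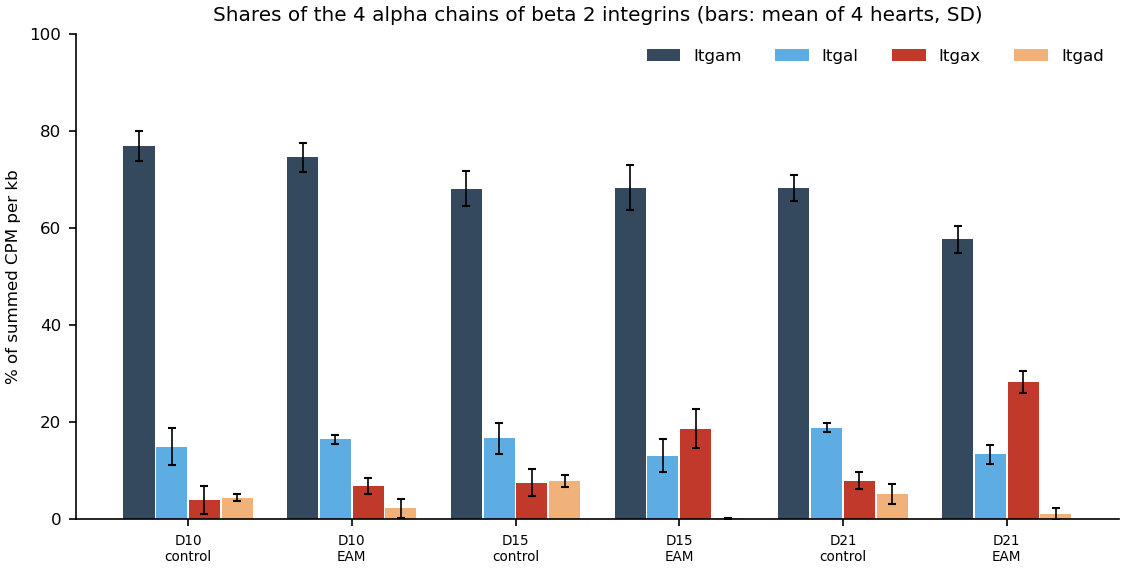
Share of each of the 4 alpha chains in their summed CPM per kb, as a percentage. Bars are means of 4 hearts with the SD. The Itgax bar is at 7.51% in D15 control, 18.6% in D15 EAM and 28.2% in D21 EAM hearts, while Itgam stays the largest in all 6 groups.

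Each member was next set against Ptprc in the same heart, a gene that all leucocytes express, to ask whether it changed by more than leucocyte transcripts as a whole. The log2 ratios were compared by a 2-sided exact permutation test of 4 against 4 hearts, whose smallest possible p is 0.0286, and the Benjamini-Hochberg adjustment ran over 24 ratios. A total of 13 ratios reached that smallest p, and 0 were called because the adjusted p was then 0.0527. The share of all genes whose ratio to Ptprc did not overlap between the groups is not given here. The 13 ratios can thus not be read as particular to the members. At D15 the ratio to Ptprc was higher in EAM than in control hearts by 2.22 in Itgax, 1.30 in Itgb2, 1.10 in Itgb7, 0.96 in Itgam and 0.56 in Itgal, all on the log2 scale and each without overlap between the groups. Fermt3 was without overlap in the other direction, with a difference of -0.45, and Itga4 at -0.37 and Itgae at -0.34 overlapped. The Itgae value depends on the 0.1 CPM added to each gene, since its plain ratio to Ptprc was 0.0246 ± 0.0106 in control and 0.0236 ± 0.00793 in EAM hearts (SD, n = 4 each). Itgb7 was the most even, at 0.211, 0.209, 0.206 and 0.202 times Ptprc in D15 EAM hearts 1 to 4 against 0.0712, 0.0857, 0.116 and 0.0994 in the controls. Itgax was at 0.347, 0.524, 0.260 and 0.508 times Ptprc in D15 EAM hearts and at 0.0619, 0.0571, 0.145 and 0.0767 in the controls.

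At D21 the ratio to Ptprc was again higher without overlap in Itgax, by 2.22, in Itgb7, by 1.17, and in Itgb2, by 0.97. Itgae joined them at 0.65. Its plain ratio to Ptprc was 0.0209 to 0.0267 in control and 0.0342 to 0.0515 in EAM hearts, also without overlap, while the log2 difference was -0.32 with 1 CPM added. Itga4 was lower without overlap at -0.55. Itgam at 0.19, Itgal at -0.09 and Fermt3 at -0.15 overlapped between the groups. At D10, Itgb7 at 0.79 and Itgal at 0.56 did not overlap, while the largest difference, that of Itgax at 1.34, and those of the other 5 members overlapped. Itgal was at 0.328, 0.319, 0.321 and 0.341 times Ptprc in the 4 EAM hearts, among them heart 1, which stood apart in its level. With the geometric mean of 5 leucocyte genes in place of Ptprc, the D21 difference of Itgam was -0.12.

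**Figure D4:**
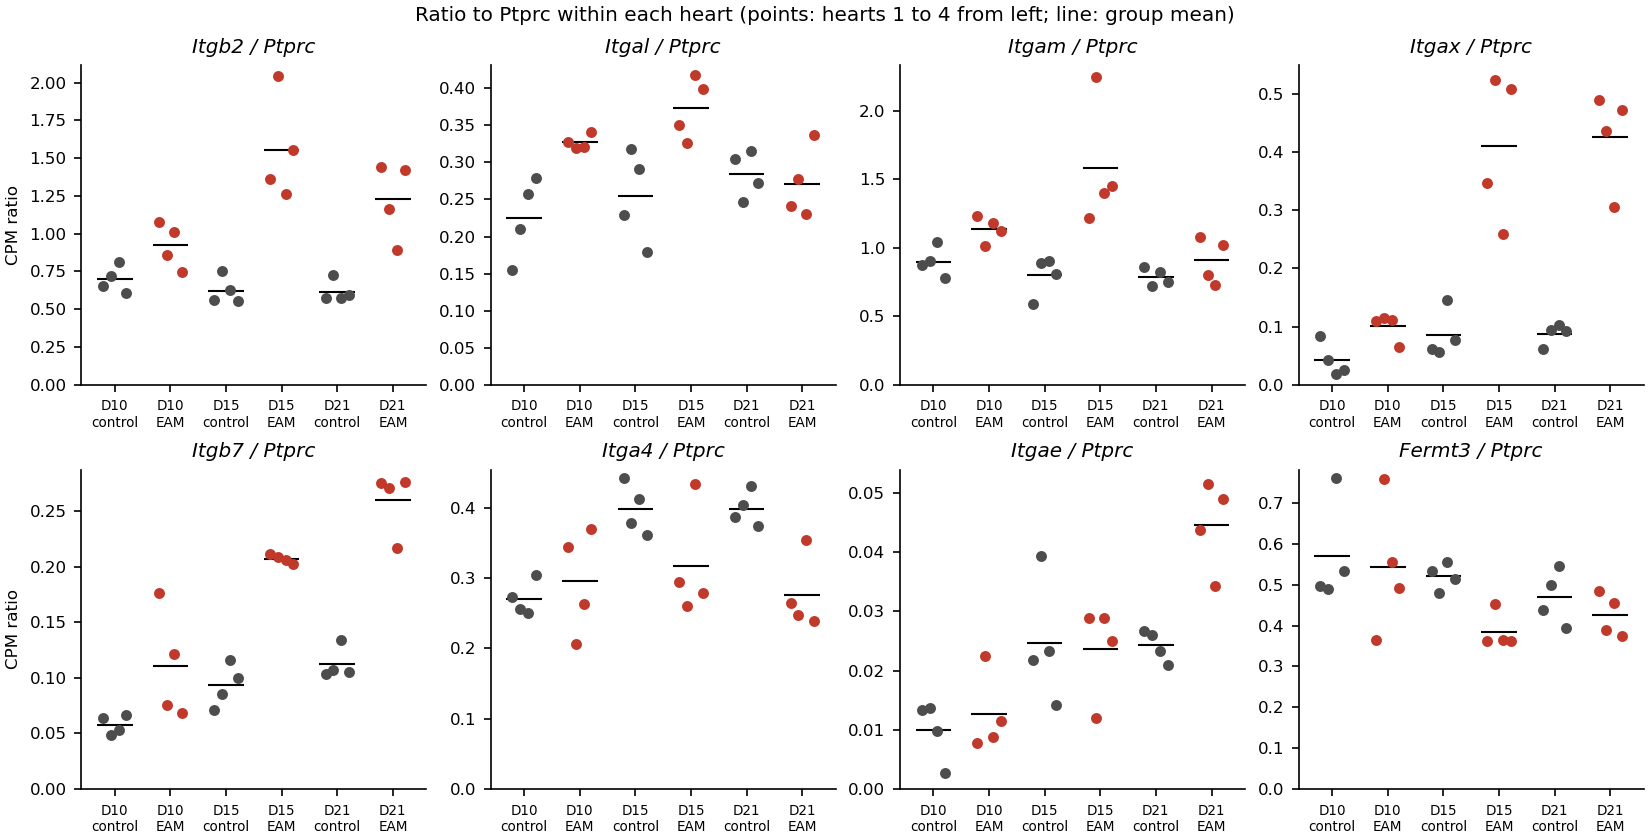
CPM of each member divided by CPM of Ptprc in the same heart, 1 panel a gene, on a linear axis from 0. Points are hearts (grey control, red EAM, hearts 1 to 4 from the left) and lines are means of 4 hearts. The mean Itgax ratio is 0.0853 in control and 0.410 in EAM hearts at D15 and 0.0873 and 0.426 at D21, and that of Itgb7 is 0.0932 and 0.207, then 0.112 and 0.260.

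Members were also set against each other, in 5 ratios at 3 days. Itgax over Itgam was 0.0643 to 0.161 in D15 control and 0.185 to 0.350 in D15 EAM hearts, and 0.0708 to 0.129 and 0.418 to 0.544 at D21. The log2 differences were 1.26 at D15 and 2.04 at D21, each without overlap (exact permutation p = 0.0286, adjusted p = 0.0714 over 15 ratios). Itgae over Itgal differed between EAM and control hearts by -0.89 on the log2 scale at D15 and by 0.74 at D21, each without overlap (exact permutation p = 0.0286, adjusted p = 0.0714). In linear terms Itgae was at 0.0369 to 0.0821 times Itgal in D15 EAM, 0.145 to 0.186 in D21 EAM and 0.0741 to 0.124 in the controls of both days. The log2 differences added 0.1 CPM to each gene. Without it the D15 ranges of Itgae over Itgal overlapped, since the highest EAM heart was at 0.0821 and the lowest control heart at 0.0794. With 1 CPM added the D21 difference was -0.13, since Itgae in controls is below 1 CPM. Itga4 over Itgal differed by -0.93 at D15, without overlap, and Itgb7 over Itgb2 overlapped at every day. Itgam over Itgal differed by 0.28 at D21 without overlap on that scale, with plain ratios of 2.61 to 2.93 in control and 2.9 to 4.49 in EAM hearts. Of the 15, 0 passed at an adjusted p under 0.05.

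The members varied together over the 24 hearts, with Pearson correlations of log2(CPM + 1) between 0.848 and 0.991 over the 28 pairs (median 0.956). Itgae lay below that added 1 CPM in every control heart. These hearts share 6 groups and a common leucocyte gradient, so the values describe the set only. With group means subtracted the range was 0.638 to 0.977 (median 0.883), and the lowest pairs all held Itgae, at 0.638 with Itga4, 0.643 with Itgam and 0.652 with Itgax. Among 14207 genes, the one most like Itgb2 was Vav1 (r = 0.996), a guanine nucleotide exchange factor of leucocytes, followed by Ifi30 (0.996). Itgam was most like Tlr13 (0.994), Itgax most like Crlf2 (0.989), Itgal most like Sema4a (0.989), Fermt3 most like Pirb (0.993) and Itga4 most like Rasgrp1 (0.987). Itgb7 was most like Il2rb (0.995), a receptor chain of T and NK cells, and Ccl5 (0.994). Itgae was most like Flt3 (0.988), a receptor of dendritic cells and their precursors, also with group means subtracted (0.942).

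The other integrin subunits moved far less. Of 19 tested at D15, 6 were called induced and 3 repressed, against 18.1% and 12.9% of all genes, with a median log2 fold change of 0.33 against 4.74 in the members. The highest were Itgb3, the beta chain of the platelet and vitronectin receptors, at 2.42 (SE 0.23), the fibronectin receptor chain Itga5 at 2.02 (SE 0.11) and the collagen receptor chain Itga2 at 1.81 (SE 0.36), all below Itga4 at 3.63, the lowest of the integrin members. The lowest were the epithelial chain Itgb6 at -1.80 and Itga8, found on smooth muscle and fibroblasts, at -1.29 (SE 0.36). The common partner of Itga4, the beta 1 chain Itgb1, was at 593 CPM in D15 control and 784 CPM in EAM hearts on average, a log2 fold change of 0.44 that was not called because it was under 2-fold. At D21 the calls were missed by Itga8 at -1.68 (edgeR adjusted p = 0.0106) and Itgb3 at 1.21 (edgeR adjusted p = 0.0142).

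**Figure D5:**
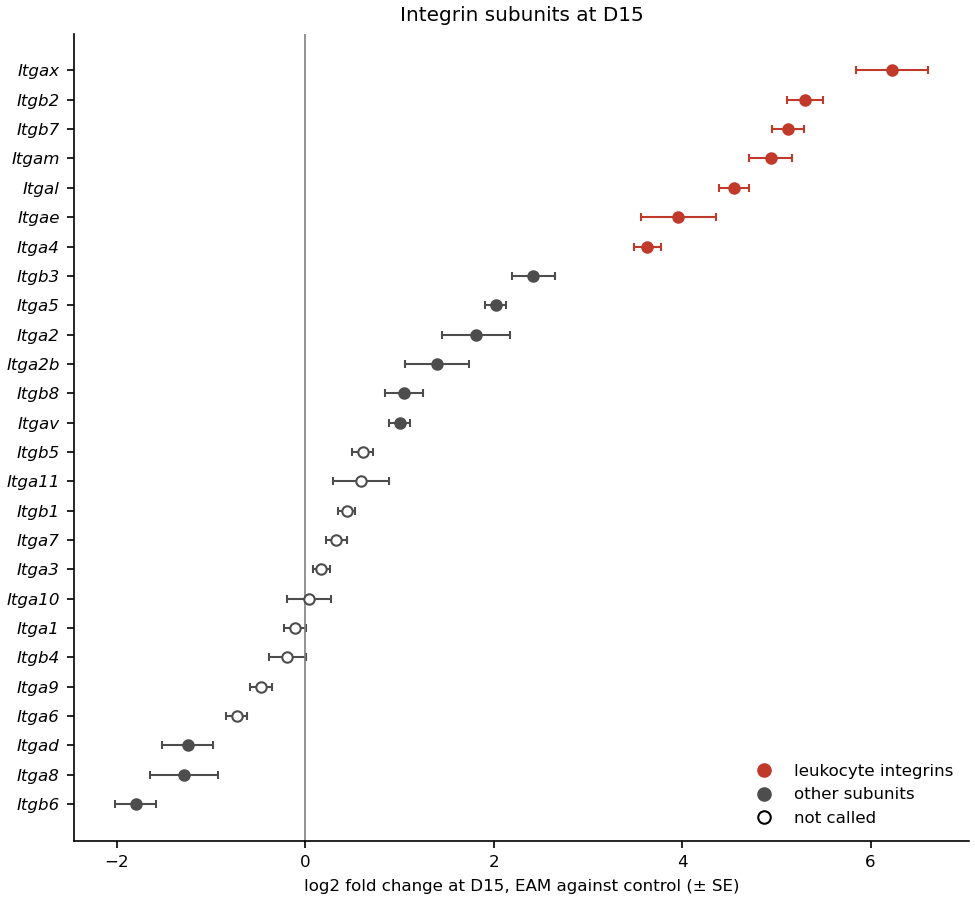
Fitted log2 fold change at D15 (± SE, edgeR) of the 7 integrin subunits among the members (red) and of 19 other subunits (grey). Filled points were called. The 7 red points lie between 3.63 and 6.23, above the highest grey point at 2.42.

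Ligands of these integrins were mixed. Of 9 tested at D15, 5 were called induced and 0 repressed, against 18.1% and 12.9% of all genes. Icam1, which LFA-1 and Mac-1 bind, rose by 2.24 in log2 fold change (adjusted p = 2.14e-06, edgeR). Vcam1, the alpha 4 beta 1 ligand on endothelium, rose by 1.98 (adjusted p = 4.17e-07, edgeR). Fn1, encoding fibronectin, rose by 4.45 at D15 (adjusted p = 8.8e-06, edgeR) and was the single ligand called at D21, at 2.69 (adjusted p = 0.00749, edgeR). Cdh1, encoding the E-cadherin that alpha E beta 7 binds, was called at D15 with a control level of 0.0295 ± 0.0340 CPM and an EAM level of 6.32 ± 2.03 CPM (SD, n = 4), the former under the level that 3 reads give. The junctional ligands Jam2 at -0.96 and Jam3 at -0.71 were lower but under 2-fold. Madcam1, the ligand of alpha 4 beta 7, had at most 5 reads in any heart and was not tested.

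Genes that regulate integrin activation, apart from Fermt3, also split, and the list holds negative regulators beside activators. Of 15 tested at D15, 9 were called induced and 0 repressed, against 18.1% and 12.9% of all genes. The highest were Cytip at 4.63, which binds cytohesin and restrains LFA-1 adhesion, and the adaptors Skap1 at 4.12 and Fyb at 3.44, which act in integrin activation in T cells. Tln2 at -0.69 and Rasgrp2 at -0.96 were the lowest, and Fermt2, the widely expressed kindlin, was at -0.67, while Fermt3 was at 3.53. At D21, 6 of 15 were called induced, against 4.13% of all genes, among them Skap1 at 3.66, Cytip at 2.87 and Fyb at 2.35. Of 11 genes that signal below beta 2 integrins, all 11 were called induced at D15 and 9 at D21, against 18.1% and 4.13% of all genes. The Src family kinase Fgr at 5.70 and the adaptor Lcp2 at 4.25 were among the highest at D15, and the kinases Syk at 2.26 and Lyn at 2.02 were the lowest.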

How the data were processed

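Hearts of 24 mice in 6 groups of 4 were grouped by day and treatment as the labels give them. Paired reads were mapped by the authors with HISAT2 2.0.4 (GRCm38), duplicates were dropped with Picard, and featureCounts gave the raw counts per Ensembl gene that were deposited. Whether counting used strand was not stated.

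A gene entered a fit when 4 or more of its samples held 10 or more reads, and was tested with edgeR 4.0.16 (TMM, quasi-likelihood F test, R 4.3.3), each day with its own 8 hearts and differences between days over all 24. P-values were adjusted by Benjamini-Hochberg over all genes tested, and calls needed FDR under 0.01 and a 2-fold change. Ratios used CPM plus 0.1 and exact permutation tests. A total of 3 reads equals 0.1201 to 0.1897 CPM by raw library totals, without the TMM adjustment used for the levels above, and this covers counting error only. Scripts were tested on simulated data. Alternatives were DESeq2 1.42.0, limma-voom (limma 3.58.1), edgeR's likelihood ratio test, other scalings, no filter, FDR under 0.05, a fit of all hearts, a replicate block and leaving out each heart. The 92 spike-in rows, with 0 reads, were left out.

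The members and lists were chosen with earlier results of these data known. Beside the members and Ptprc, the genes named are, per list, the 3 highest and 2 lowest at D15 and any called in the opposite direction, and the genes most correlated with each member. Some genes under this rule are not reported here. Itgb1, Vcam1, Madcam1, Fermt2, Flt3 and the other dendritic cell genes were named after their values were seen, as were the genes named at D21.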

Additional observations from a re-analysis of the deposited data

Results flagged for a closer look

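Among the 48 sets of 4 hearts formed by the 8 members and 6 groups, 6 held a heart far from the other 3 (a gap to the nearest heart above Dixon's 95% limit for 4 values), and chance marks about 1 set in 20. In D10 EAM heart 1, Itga4 was at 66.7 CPM (next 15.4), Itgb7 at 34.1 CPM (next 6.85) and Itgae at 1.5 CPM (next 0.623). The other 3 were control hearts. Itgax was at 2.71 CPM in D21 control heart 4 (next 1.73), Itgb7 at 2.45 CPM in D10 control heart 1 (next 1.64) and Itga4 at 6.26 CPM in D15 control heart 2 (next 7.35). The EAM effect differed between D10 and D15 by the edgeR test of the difference itself in Itgax (log2 difference 3.67), Itgb2 (3.38), Itgam (3.15), Itgal (2.56) and Fermt3 (2.46), and was larger at D15 in each. Itgax was called in only 5 and Itgal in only 2 of the 16 fits that left out 1 heart.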

How the results depend on the processing

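At D15 all 8 members, and at D10 and between control groups 0, were called under every alternative run. At D21, 7 were called, against 0 by limma-voom and 0 to 8 when 1 heart was left out. For the effect at D15 minus D10, 5 were called, against 3 by limma-voom, 8 at FDR under 0.05, 8 with the replicate block and 3 to 8 when 1 heart was left out. Over all genes the larger effects numbered 878, against 826 by limma-voom, 1599 at FDR under 0.05 and 1288 with the block. For D21 minus D15, 0 were called, against 2 at FDR under 0.05 (432 smaller over all genes, against 150) and 0 to 1 when 1 heart was left out. Same-numbered hearts deviated together (r above 0.1) in 2 of 4 pairs at D10, 0 at D15 and 3 at D21, so the numbers were not taken as pairs, and the block called 8 at D21 (601 genes induced and 137 repressed over all genes, against 630 and 177). Ratios that turned direction with 1 CPM added were Itgae to Ptprc at D10 (-0.55) and D21 (-0.32), Itgae to Itgal at D21 (-0.13) and Itgb7 to Itgb2 at D21 (-0.11). With 5 leucocyte genes in place of Ptprc, Itga4 (-0.07) and Itgae (-0.07) at D10 and Itgam at D21 (-0.12) turned. When 1 heart was left out, the D10 ratios to Ptprc ran from -0.03 to 0.25 in Itga4, -0.23 to 0.32 in Itgae and -0.28 to 0.08 in Fermt3. The cause was not tested. Over all genes, induced calls at D21 numbered 630, against 80 by limma-voom, 1364 by DESeq2, 1356 by the likelihood ratio test, 1514 in the fit of all hearts and 0 to 1477 when 1 heart was left out (0 without any single control heart), and at D10 they numbered 0, against 48 by DESeq2 and 45 by the likelihood ratio test. With total counts the D15 split of induced to repressed went from 2838 and 2019 to 3194 and 1554, as the median of all genes moved from 0.016 to 0.166. The same scaling took the larger and smaller effects from 878 and 1199 to 1017 and 831 for D15 minus D10, and from 447 and 150 to 243 and 229 for D21 minus D15. Itgae, at 1 to 14 reads in control hearts, was the member most limited by depth.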
